A study of Rattus norvegicus with 12 samples.

Results

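The liver of rats given the triazole fungicide myclobutanil was compared with the liver of control rats, over all genes on the array rather than over chosen pathways. The comparison used 6 of the 12 arrays of the series: the 3 whose titles name myclobutanil and the 3 whose titles name the control. All 12 rats were male Sprague-Dawley animals, an outbred laboratory stock, 10 weeks old. Myclobutanil was given by gavage at 300 mg/kg/day, every 24 h over 72 h, and the labels do not say what the control rats received. The other 6 arrays, 3 from rats given propiconazole at 300 mg/kg/day and 3 from rats given triadimefon at 175 mg/kg/day, entered the fit to steady its estimate of the spread. RNA of 1 liver was put on each Affymetrix Rat Genome 230 2.0 array, and no animals were pooled. Replicates are therefore separate animals. Whole liver was measured, so fewer cells of a type and less RNA per cell cannot be told apart.

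The liver detoxifies foreign compounds, and it also makes most plasma proteins, disposes of amino acid nitrogen and stores and releases glucose and lipid. Hepatocytes do this work. Resident macrophages, the Kupffer cells, line the sinusoids and clear particles from portal blood. Triazole fungicides block fungal sterol demethylase and can also bind mammalian cytochrome P450 enzymes, and several of them raise liver enzymes of drug metabolism in rodents.

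The promoters of 4 genes are shown because they belong to the differences that held in all 6 fits with an array left out, described below, 2 higher and 2 lower after myclobutanil. Each runs from 250 bases before to 50 bases after the gene's start, 5′ to 3′ on the gene's strand, from RefSeq on the GRCr8 build. They are Gsta3 (chr9:31154739-31155038, plus strand), Cxcl9 (chr14:16006916-16007215, plus strand), Stac3 (chr7:65228225-65228524, plus strand) and Fcna (chr3:28847188-28847487, minus strand). Capitals mark the only match in each to any of 9 short motifs searched on both strands: the antioxidant response element core TGACNNNGC in Gsta3, the CCAAT box in Cxcl9 and Stac3, and the TATA box, here on the opposite strand, in Fcna. A match is a description of letters and not a shown binding site.
Gsta3: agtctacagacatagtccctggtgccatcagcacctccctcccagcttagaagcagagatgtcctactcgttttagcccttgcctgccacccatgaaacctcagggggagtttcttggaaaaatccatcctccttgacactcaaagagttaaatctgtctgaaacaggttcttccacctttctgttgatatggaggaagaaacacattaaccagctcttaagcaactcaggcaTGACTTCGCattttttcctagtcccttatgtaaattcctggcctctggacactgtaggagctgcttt
Cxcl9: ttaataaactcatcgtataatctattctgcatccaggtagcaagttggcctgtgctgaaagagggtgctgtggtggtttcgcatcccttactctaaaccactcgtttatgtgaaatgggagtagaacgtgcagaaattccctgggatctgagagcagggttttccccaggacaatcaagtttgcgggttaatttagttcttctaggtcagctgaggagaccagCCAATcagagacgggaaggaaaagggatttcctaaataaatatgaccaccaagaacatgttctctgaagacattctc
Stac3: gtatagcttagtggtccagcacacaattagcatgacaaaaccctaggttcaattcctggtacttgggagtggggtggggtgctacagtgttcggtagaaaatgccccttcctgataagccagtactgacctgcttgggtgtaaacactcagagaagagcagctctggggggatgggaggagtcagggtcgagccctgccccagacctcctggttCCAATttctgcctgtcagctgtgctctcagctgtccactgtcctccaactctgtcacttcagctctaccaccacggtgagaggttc
Fcna: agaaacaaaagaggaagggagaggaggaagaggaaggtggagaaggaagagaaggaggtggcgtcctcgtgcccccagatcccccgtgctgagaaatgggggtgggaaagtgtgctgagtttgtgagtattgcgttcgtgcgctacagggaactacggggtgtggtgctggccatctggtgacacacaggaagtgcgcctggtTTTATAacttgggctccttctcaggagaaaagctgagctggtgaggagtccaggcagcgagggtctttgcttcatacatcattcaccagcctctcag

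Values are the deposited scores after quantile normalization. They are log-like, but the base of the logarithm is unknown, so no fold change can be given and each difference is stated in units of the deposited scale, called log-like units here. Myclobutanil replicate 1 was unlike the rest. Its values had a median of 0.157 as deposited, against 0.0182 to 0.0552 on the other 11 arrays, and it correlated with other arrays at a median of 0.927, where the other 11 had 0.962 to 0.982. Its median distance from the mean of its group's other arrays was 0.116, with 0.0646 and 0.0747 for myclobutanil replicates 2 and 3 and 0.043 to 0.0489 in the control group. As a gauge of RNA integrity, the 3′ probe set of GAPDH exceeded the 5′ one by 0.678, 0.478 and 0.716 in the myclobutanil arrays, against 0.368, 0.800 and 0.808 in the control arrays, so the groups overlapped. Hepatocyte markers were high throughout, with a mean level over 13 markers of 2.68 to 2.94 in the myclobutanil arrays and 2.88 to 3.01 in the control arrays.

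After myclobutanil, 395 of 21729 probe sets differed from control (1.82%), 224 higher (1.03%) and 171 lower (0.787%), at an adjusted p under 0.05 in limma. With each gene represented by its brightest probe set, 267 of 11842 genes were called (2.25%): 151 higher (1.28%) and 116 lower (0.98%). Before adjustment 4594 probe sets (21.1%) had p under 0.05, and in 5063 (23.3%) the 3 myclobutanil arrays lay wholly above or below the 3 control arrays. Most genes stood close to control: the median difference was -0.01, the median size 0.08, and for 6286 genes (53.1%) the 95% interval of the difference lay within 0.25 units of 0. Sizes among the called genes ran from 0.12 to 2.39, with a median of 0.41. Only 23 genes differed by more than 1 unit, of which 17 were called, and of 242 that differed by more than 0.5 units 96 were called. Called probe sets made up 0.801% of the dimmest, 1.79% of the middle and 2.86% of the brightest of 3 equal bins of level.

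**Figure D1:**
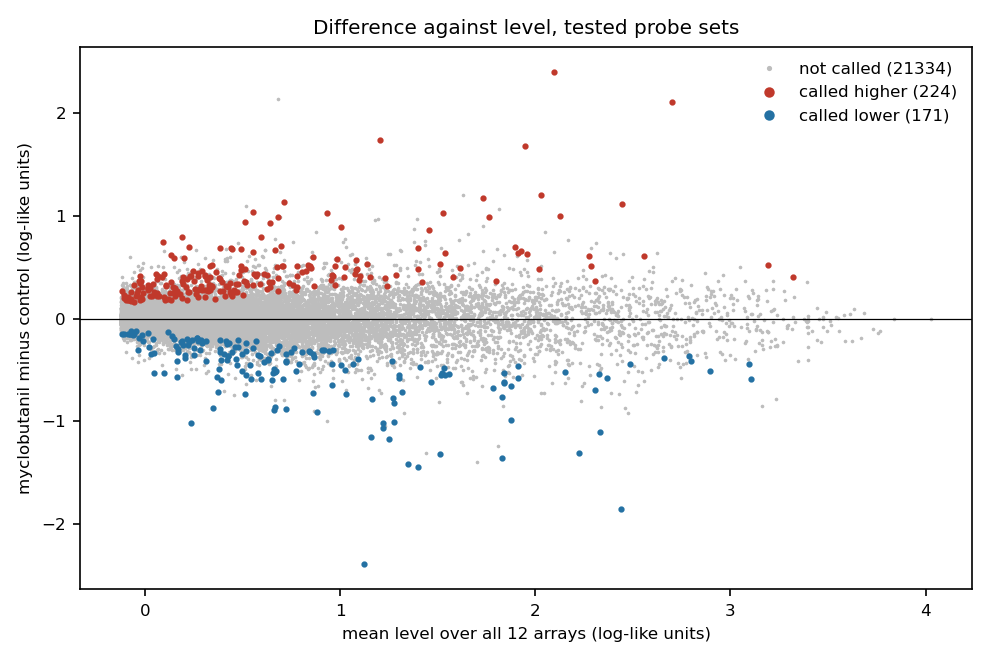
Each point is 1 of the 21729 tested probe sets, with its mean level over all 12 arrays (x axis, log-like units) and its myclobutanil minus control difference (y axis, log-like units). The 224 probe sets called higher and the 171 called lower are coloured; grey points between them are differences that did not pass the test.

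The number of calls depended on single animals, of the other fungicide groups too. Of the 267 genes, 214 were still called without myclobutanil replicate 1, 248 without replicate 2 and 77 without replicate 3. Without control replicate 1, 2 or 3 the numbers were 60, 53 and 20. Leaving out 1 propiconazole or triadimefon array cut the 395 called probe sets to between 165 and 262. Such an array adds to the estimate of the spread, and normalization and the level filter were also repeated without it. Calls of 16 genes held in all 6 fits that left out a myclobutanil or control array, and 2 genes, Gsr and Hebp2, were called in none of them. The direction was the same for all 267 genes in the fits without myclobutanil replicate 1 or without any control array, and for 266 without myclobutanil replicate 2 or 3.

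The 15 named genes whose call held in all 6 fits comprised 8 lower and 7 higher genes; the fits left out arrays of the myclobutanil and control groups only. Fitted on those 6 arrays alone, 3 of the 15 were called in limma: Zdhhc2, Gsta3 and Stac3. The 15 were taken by smallest p from the 16 genes that held in all 6 fits; the other was Tusc3, which rose by 0.41 ± 0.06. The 15 span drug conjugation, lipid transport, chemokines, complement and hormone-like signals.

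Enzymes of conjugation were among the genes that rose. Gsta3, an alpha-class glutathione transferase, had 1.62, 2.17 and 1.71 in the myclobutanil arrays, against 0.18, 0.15 and -0.04 in the control arrays, a rise of 1.73 ± 0.18 (SE; limma adjusted p = 0.00358). Every treated animal stood more than 1 unit above every control animal. Ugt2b1, a glucuronosyltransferase, had 2.81, 2.87 and 2.80 in the myclobutanil arrays and 1.73, 1.32 and 2.09 in the control arrays, and rose by 1.12 ± 0.15 (limma adjusted p = 0.0113). Here the treated animals were nearly level and the spread lay among the controls. Kyat1, which makes kynurenic acid and also cleaves cysteine conjugates, had 1.29, 1.32 and 1.48 in the myclobutanil arrays, against 0.87, 0.78 and 0.74 in the control arrays (0.57 ± 0.07, limma adjusted p = 0.00748). Gsta3 and Ugt2b1 belong to families of closely related genes, which their probe sets may not tell apart.

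The smallest p of all genes belonged to Zdhhc2, a palmitoyltransferase that adds lipid anchors to proteins. Its levels were 0.43, 0.55 and 0.41 in the myclobutanil arrays and -0.13, -0.15 and -0.11 in the control arrays, a rise of 0.59 ± 0.05 (limma adjusted p = 0.000748). Both groups were tight. Cxcl9, a chemokine that draws activated T cells, stood at 1.55, 0.97 and 1.55 in the myclobutanil arrays, against 0.06, 0.29 and 0.33 in the control arrays (1.13 ± 0.15, limma adjusted p = 0.00884). Replicate 2 was the lowest treated array and still lay clear of the controls. Tmem30b, a subunit of lipid flippases, rose by 0.68 ± 0.09 and Mnd1, known from meiotic recombination, by 0.30 ± 0.04 (limma adjusted p = 0.00884 and 0.00872).

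Stac3, an adaptor protein best known from calcium release in skeletal muscle, had the largest difference of any gene. Stac3 read 0.67, 0.04 and -0.13 in the myclobutanil arrays, against 2.68, 2.50 and 2.57 in the control arrays, and fell by 2.39 ± 0.25 (limma adjusted p = 0.00358). The fall of Stac3 was 2.63 without replicate 1, the least changed treated animal. Of 5 tested skeletal muscle markers none was called, and their mean level ran from 0.44 to 0.58 in the myclobutanil arrays and from 0.47 to 0.51 in the control arrays. Gnmt, glycine N-methyltransferase, which uses up excess S-adenosylmethionine, had 1.59, 1.75 and 1.18 in the myclobutanil arrays and 3.03, 2.77 and 2.66 in the control arrays, and fell by 1.31 ± 0.18 (limma adjusted p = 0.0113).

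Fcna, ficolin A, a lectin of the complement lectin pathway made by macrophages in the mouse, had 0.30, 0.03 and -0.02 in the myclobutanil arrays, against 1.03, 0.94 and 1.0 in the control arrays (-0.89 ± 0.08, limma adjusted p = 0.00212). Slc13a4, a sodium-coupled sulfate transporter, had 0.80, 0.58 and 0.35 in the myclobutanil arrays and 1.59, 1.49 and 1.39 in the control arrays (-0.91 ± 0.10, limma adjusted p = 0.00386). Inhba, the subunit of activin A, had 0.01, 0.29 and 0.29 in the myclobutanil arrays and 1.14, 1.04 and 1.03 in the control arrays (-0.87 ± 0.11, limma adjusted p = 0.00884). In all 3 genes, which were chosen for calls that held, the lowest control array lay above the highest treated one. Smaller falls were those of the organic anion and phosphate transporter gene Slc17a4 (0.59 ± 0.08), the complement factor D gene Cfd (0.56 ± 0.07) and Hyal3 of the hyaluronidase family (0.49 ± 0.07). The limma adjusted p was 0.00897 for Slc17a4, 0.00872 for Cfd and 0.0109 for Hyal3.

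**Figure D2:**
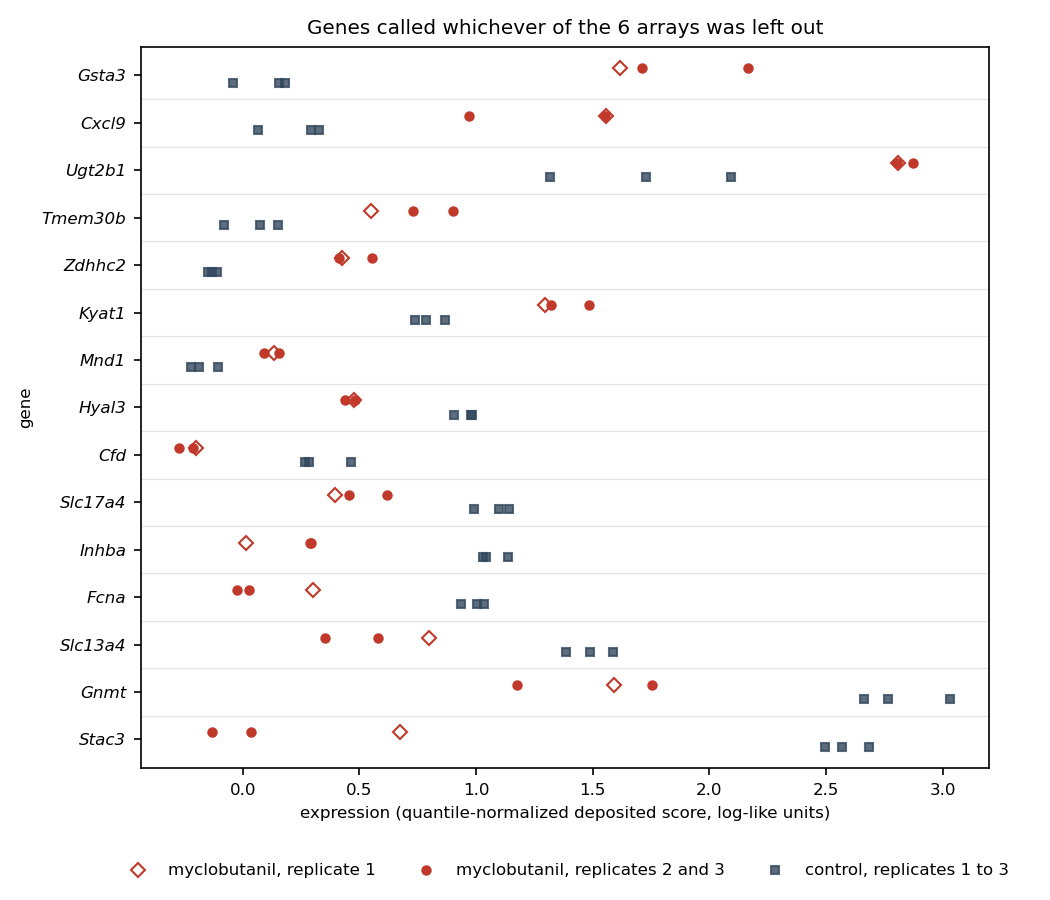
Levels of the 15 genes in each array (x axis, log-like units), ordered by difference. Open diamonds are myclobutanil replicate 1, filled circles myclobutanil replicates 2 and 3, and squares the 3 control arrays. The 2 groups do not overlap for any of the 15, from Gsta3 (rise of 1.73) to Stac3 (fall of 2.39). This follows closely from their choice, by calls that held in all 6 fits on these same arrays. Over all tested probe sets the groups do not overlap in 23.3%.

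Leaving out myclobutanil replicate 1 raised the number of calls to 670 probe sets (3.08%), 440 higher (2.02%) and 230 lower (1.06%). Among genes, 427 of 11767 tested were called (3.63%), 267 higher (2.27%) and 160 lower (1.36%). Of these 213 were not called with all arrays, and 53 genes called with all arrays were lost. Within the 267 called genes it lay nearest to the controls in 56 and farthest from them in 128, replicate 2 lay nearest in 165 and replicate 3 in 46. The difference grew in size in 105 of the 267 genes when replicate 1 was left out.

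**Figure D3:**
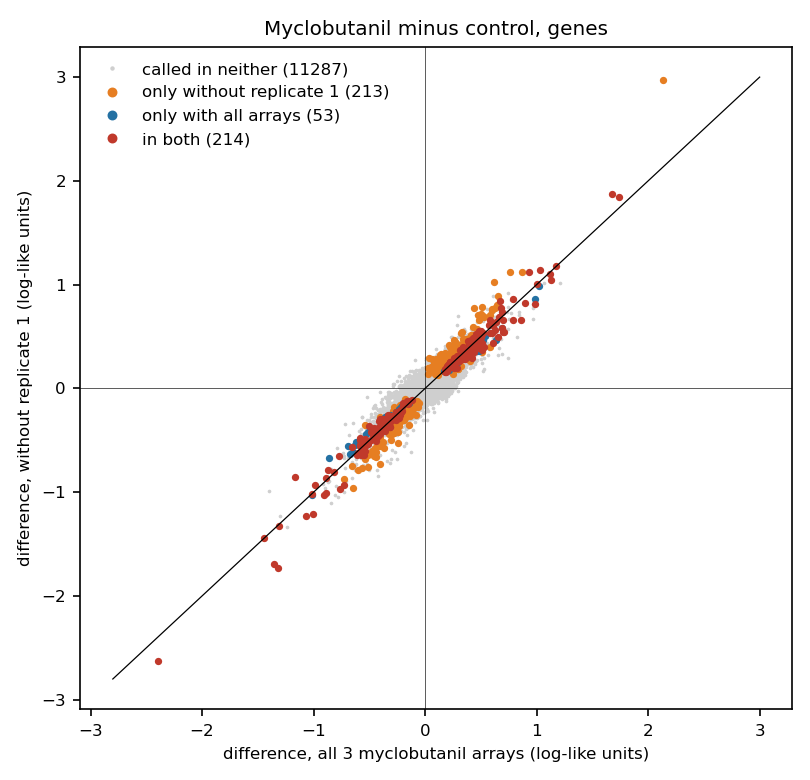
Myclobutanil minus control difference of each gene with all 3 myclobutanil arrays (x axis) and without replicate 1 (y axis), both in log-like units; the diagonal marks equal values. Red points are the 214 genes called both ways, orange the 213 called only without replicate 1 and blue the 53 called only with all arrays.

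Genes not called with all arrays but called without replicate 1 differed in how the treated animals were spread. The acute phase gene Lcn2, lipocalin 2, which binds bacterial siderophores, was the extreme: 0.43, 2.58 and 3.37 in the myclobutanil arrays, against -0.03, -0.02 and 0.03 in the control arrays. With all arrays the Lcn2 difference was 2.13 ± 0.60 (limma adjusted p = 0.0916) and without replicate 1 it was 2.97 (limma adjusted p = 0.00735). Replicates 2 and 3 were far above every control, and replicate 1 was only slightly so. Lbp, the lipopolysaccharide binding protein, another acute phase gene, had 1.24, 1.93 and 2.84 in the myclobutanil arrays and 1.42, 1.24 and 1.06 in the control arrays. There replicate 1 lay inside the control range, and the Lbp difference without it was 1.13 (limma adjusted p = 0.0445). The acute phase gene Saa3 behaved otherwise: it had 0.27, 0.14 and 0.39 in the myclobutanil arrays, against -0.09, -0.13 and -0.08 in the control arrays, and rose by 0.37 ± 0.05 with all arrays (limma adjusted p = 0.0115).

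Further genes not called with all arrays but called higher without replicate 1 were Idi1 of the isoprenoid pathway (1.12), the sulfotransferase gene Sult2a6 (1.03), the transporter gene Slc16a6 (0.89), the amyloid precursor gene App (0.80), the peroxisomal thioesterase gene Acot4 (0.79), the ER chaperone gene Fkbp11 (0.78), the hepatic transcription factor gene Onecut1 (0.77) and the efflux pump gene Abcb1a (0.77). A dimmer probe set of Abcb1a was called with all arrays too (0.75 ± 0.14, limma adjusted p = 0.0262). Onecut1 read -0.02, 1.31 and 0.60 in the myclobutanil arrays and 0.12, 0.19 and 0.28 in the control arrays, so replicate 1 lay below the controls. In Fkbp11, with 1.21, 1.37 and 1.98 in the myclobutanil arrays, replicate 3 was the one apart, against 0.84, 0.84 and 1.0 in the control arrays. Called lower without replicate 1 were Tkfc (-0.96), the hepatic lipase gene Lipc (-0.87), Crym (-0.79), Adhfe1 (-0.77), the lysosomal protease gene Ctss (-0.76), the complement gene C1qb (-0.75), the annexin gene Anxa3 (-0.73), LOC100910973 (-0.68), Macrod1 (-0.66) and the MHC class I gene RT1-S3 (-0.66). Of these 20 genes, 9 had arrays of the 2 groups that overlapped when replicate 1 was kept. Their limma adjusted p ran from 0.00735 to 0.0445 without it.

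**Figure D4:**
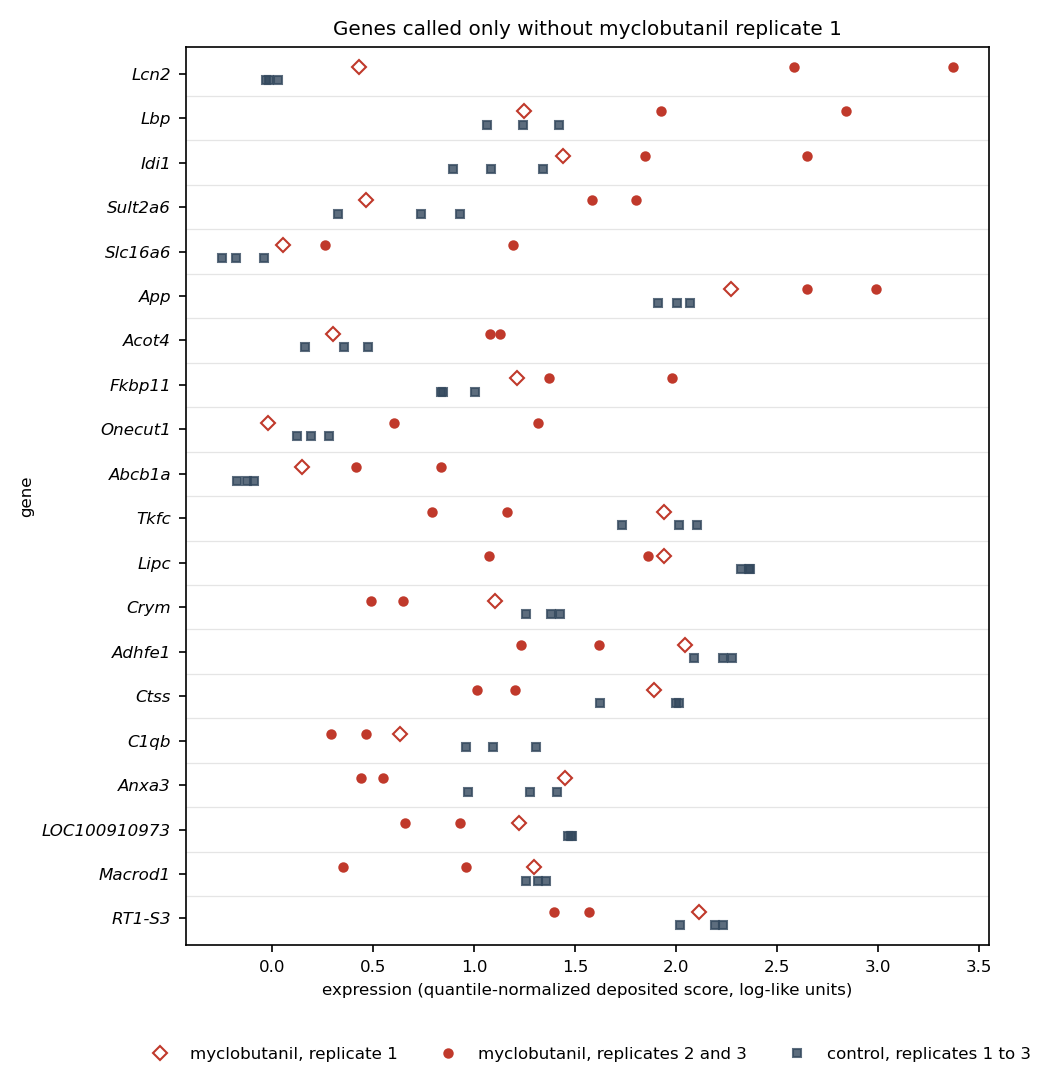
Levels in each array (x axis, log-like units) of the 20 genes named as called without myclobutanil replicate 1 (open diamonds) and not with all arrays. Replicates 2 and 3 (filled circles) lie on 1 side of the control squares in every gene because the rule that chose the genes required it. The groups overlap in 9 of the 20 once the diamond is included. Lcn2 is the widest split, with the diamond at 0.43 and the circles at 2.58 and 3.37.

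Macrophage marker genes had the highest share of calls among the marker lists, all of them downward. The lists were written with earlier results of these data known. Clec4f, Cd5l and C1qa belong to the 10 deepest falls already known then, so their calls are no independent support. Of 10 tested Kupffer cell and macrophage markers all 10 stood below control, 5 fell (0.98% of all genes did) and 9 did so without replicate 1. Their median difference was -0.59, and -0.70 without replicate 1, while the median over all genes was -0.01. Clec4f, a lectin of rodent Kupffer cells, had 1.58, 0.63 and 0.48 in the myclobutanil arrays, against 2.11, 2.40 and 2.23 in the control arrays (-1.35 ± 0.22, limma adjusted p = 0.0176). Cd5l, secreted by tissue macrophages, had 1.41, 0.21 and 0.14 in the myclobutanil arrays and 1.66, 1.96 and 2.08 in the control arrays (-1.32 ± 0.28, limma adjusted p = 0.0417). In both genes replicate 1 lay between the other treated animals and the controls. The complement gene C1qa had 1.02, 0.47 and 0.37 in the myclobutanil arrays, against 1.66, 1.59 and 1.62 in the control arrays. C1qc fell by 0.73 ± 0.14 and Adgre1, the F4/80 antigen, by 0.30 ± 0.06. The 5 calls held in 1 to 3 of the 6 fits with an array left out. The mean level of the 10 markers was 0.32 to 0.91 in the myclobutanil arrays and 1.12 to 1.30 in the control arrays, and of the markers only Adgre1 was near 0 in the control arrays (-0.05, 0.17 and 0.02). Not called with all arrays, C1qb (-0.66), Csf1r (-0.43), Cd163 (-0.51) and Cd68 (-0.37) passed without replicate 1, and Mrc1 (-0.16) did not.

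Genes outside the marker list that are also known from macrophages fell too; they were picked after their values were seen, so they add no count. Ccl6, a rodent chemokine, had 1.77, 1.17 and 1.07 in the myclobutanil arrays and 1.91, 2.24 and 2.16 in the control arrays (-0.77 ± 0.17, limma adjusted p = 0.0461). Axl and Mertk, receptors for the uptake of dying cells, fell by 0.43 ± 0.07 and 0.26 ± 0.06, the folate receptor gene Folr2 by 0.32 ± 0.06 and the transcription factor gene Maf by 0.53 ± 0.11. None of 14 lymphocyte markers and none of 6 neutrophil and monocyte markers was called in limma with all arrays. At an unadjusted p under 0.05, 0 were higher and 7 lower, and 1 higher and 1 lower, beside 10.4% and 13% of all genes. Without replicate 1, 1 lymphocyte marker was called lower. Lymphocyte markers were dim, with a mean level of 0.01 to 0.02 in the myclobutanil arrays and 0.08 to 0.12 in the control arrays. The neutrophil gene S100a9 had 0.71, 0.18 and 1.06 in the myclobutanil arrays and -0.01, 0.14 and 0.04 in the control arrays (limma adjusted p = 0.114).

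Polyamine synthesis had the highest share of calls among the 30 pathway lists: 4 of 13 tested genes rose (1.28% of all genes did) and none fell. This list too was written with earlier results of these data known. Odc1, ornithine decarboxylase, the first enzyme of the pathway, had 1.37, 1.06 and 1.51 in the myclobutanil arrays, against 0.95, 0.77 and 0.62 in the control arrays (0.53 ± 0.12, limma adjusted p = 0.0471). Amd1, which supplies decarboxylated S-adenosylmethionine, had 1.02, 1.18 and 1.01 in the myclobutanil arrays and 0.68, 0.71 and 0.57 in the control arrays (0.41 ± 0.07, limma adjusted p = 0.0214). Azin1, which frees ornithine decarboxylase from antizyme, rose by 0.48 ± 0.09 and Mtap, which salvages methylthioadenosine, by 0.51 ± 0.10. The antizyme genes Oaz1 and Oaz2, which target ornithine decarboxylase for breakdown, stood at -0.41 ± 0.14 and -0.38 ± 0.10 and did not pass (limma adjusted p = 0.139 and 0.0768). The spermidine synthase gene Srm stood at 0.43 ± 0.10 and was not called with all arrays (0.52 and called without replicate 1). Another probe set of Azin1 stood at -0.21 ± 0.09, the opposite way. The 4 calls held in 1 to 3 of the 6 fits with an array left out, and the Odc1 call was lost without replicate 1. The list's median was 0.23 and ran from 0.11 with array weights to 0.33 without myclobutanil replicate 2.

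Genes of protein turnover and ribosome assembly stood mostly above control, with few calls. Of 30 proteasome genes 2 rose, Psma1 (0.35 ± 0.08) and Psmd12 (0.33 ± 0.06), 9 were higher at an unadjusted p under 0.05 (10.4% of all genes were) and the median was 0.16. Without replicate 1 the median was 0.09. Of 29 ribosome biogenesis genes 2 rose, Nip7 (0.51 ± 0.10) and Gar1 (0.44 ± 0.09), and 11 were higher unadjusted, with a median of 0.13. Nip7, a factor for ribosomal RNA processing, had 1.14, 0.78 and 0.94 in the myclobutanil arrays, against 0.41, 0.43 and 0.49 in the control arrays. Called genes with a like role that are outside the list, again picked after seeing their values, were Pno1 (0.50 ± 0.07), Brix1 (0.41 ± 0.09), Bud23 (0.33 ± 0.05) and Ltv1 (0.23 ± 0.05). No ribosomal protein gene of 17 was called in limma (5 higher and 0 lower unadjusted), and their median of 0.08 turned to -0.10 with median centring and to -0.07 on the deposited values. The median of 32 genes of ER translocation and N-glycosylation, 0.08, likewise turned to -0.05 and -0.03, and without myclobutanil replicate 3 to -0.03. Of 27 splicing factor genes the cold-inducible Rbm3 (0.89 ± 0.15) and Srsf10 (0.18 ± 0.03) rose and none fell, beside 1.28% and 0.98% of all genes. Unadjusted, 7 of them were higher and 4 lower.

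Several genes of cell division rose, at low levels; apart from those in the lists and ranks above they were picked after their values were seen. Pclaf, a partner of the replication clamp, had 0.95, 0.39 and 0.63 in the myclobutanil arrays, against -0.15, -0.17 and -0.09 in the control arrays (0.79 ± 0.13, limma adjusted p = 0.0161). Cdk1, the mitotic kinase, had 0.95, 0.39 and 0.55 in the myclobutanil arrays and -0.12, -0.11 and 0.03 in the control arrays (0.70 ± 0.14, limma adjusted p = 0.0344). Replicate 1 was the highest and replicate 2 the lowest treated array in both. The topoisomerase gene Top2a (0.36 ± 0.07), the kinetochore gene Spc24 (0.43 ± 0.07) and the replicative helicase gene Mcm4 (0.22 ± 0.04) rose as well. Rb1, the retinoblastoma protein that holds back entry into the cell cycle, fell by 0.22 ± 0.05.

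Single genes of oxidant defence and drug handling were called in both directions; they were picked for their size and form no tested group. Nqo1, a quinone reductase, had 2.31, 2.20 and 2.24 in the myclobutanil arrays, against 1.47, 1.60 and 1.59 in the control arrays (0.70 ± 0.10, limma adjusted p = 0.0115). The treated and control ranges were both narrow and lay well apart. Ltc4s, leukotriene C4 synthase, had 1.0, 1.30 and 1.77 in the myclobutanil arrays and 0.44, 0.50 and 0.33 in the control arrays (0.93 ± 0.16, limma adjusted p = 0.0224). Its relative Mgst2, a microsomal glutathione transferase, rose by 0.61 ± 0.12, the nuclear protein gene Pir by 0.71 ± 0.14, Blvrb, a biliverdin and flavin reductase, by 0.39 ± 0.08, and the efflux transporter gene Abcc3 by 0.69 ± 0.11. Cyp1a1 had 0.72, 0.63 and 1.17 in the myclobutanil arrays and 0.03, 0.06 and 0.06 in the control arrays. Of 50 tested P450 genes 2 rose and 2 fell, beside 1.28% and 0.98% of all genes, and without replicate 1 the counts were 2 and 6. These counts rest on probe sets with 1 assigned gene. Any P450 read by a probe set with several genes or none is not in them. Cyp2e1, the ethanol-inducible P450, had 2.57, 3.05 and 2.71 in the myclobutanil arrays, against 3.35, 3.40 and 3.34 in the control arrays (-0.59 ± 0.11, limma adjusted p = 0.0253), and Cyp2t1 fell by 0.51 ± 0.08.

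Amino acid and one-carbon genes stood below control. Of 29 genes of amino acid catabolism 3 fell and none rose, with 15 lower at an unadjusted p under 0.05 (13% of all genes were) and a median of -0.22. Prodh, which starts proline breakdown, had 0.90, 1.08 and 0.76 in the myclobutanil arrays, against 1.80, 1.73 and 1.67 in the control arrays (-0.82 ± 0.14, limma adjusted p = 0.0176). Hal, of histidine breakdown, fell by 0.58 ± 0.12 and Hgd, of tyrosine breakdown, by 0.53 ± 0.10. Abat, which degrades GABA, fell by 0.62 ± 0.13. Other probe sets of Abat stood at -0.03 and -0.12 and were not called. Without myclobutanil replicate 1 Hal and Abat were not called (limma adjusted p = 0.0662 and 0.0599). Each of these 2 calls held in 1 of the 6 fits with an array left out. Of 22 methionine and folate genes only Gnmt fell, with 8 lower and 1 higher unadjusted and a median of -0.25. No urea cycle gene of 12 was called in limma (0 higher and 4 lower unadjusted). The ornithine transcarbamylase gene Otc had 2.07, 2.45 and 1.36 in the myclobutanil arrays and 2.83, 2.55 and 2.67 in the control arrays (limma adjusted p = 0.11). The medians of these 3 lists stayed below 0 in all alternatives, from -0.41 to -0.06.

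Single enzymes of vitamin C, glucose and glycerol metabolism fell, and single lipid genes were called in both directions. Gulo, which completes vitamin C synthesis in rats, had 1.27, 1.69 and 1.10 in the myclobutanil arrays, against 2.45, 2.24 and 2.33 in the control arrays (-0.99 ± 0.14, limma adjusted p = 0.0115). Pc, pyruvate carboxylase, which feeds gluconeogenesis, had 0.59, 0.82 and 0.55 in the myclobutanil arrays and 1.55, 1.09 and 1.25 in the control arrays (-0.64 ± 0.13, limma adjusted p = 0.0405). Without myclobutanil replicate 1 Pc was not called (limma adjusted p = 0.0551), and its call held in 1 of the 6 fits with an array left out. Slc37a4, the glucose 6-phosphate transporter, fell by 0.58 ± 0.11, the glycerol kinase gene Gk by 0.66 ± 0.11 and the pyruvate dehydrogenase kinase gene Pdk2 by 0.54 ± 0.12. Another probe set of Gk stood at -0.16 ± 0.08 and was not called. Txnip, which restrains glucose uptake, fell by 0.47 ± 0.09. In lipid handling, Acsl3, a fatty acid activating enzyme, rose by 0.69 ± 0.13 and Tmem97, a sterol-regulated membrane protein, by 0.66 ± 0.10. Of 27 genes of glycerolipid and phospholipid synthesis 1 rose and none fell, with a median of 0.03. It was Agpat3 (0.34 ± 0.06), whose 3 other probe sets stood at -0.01, 0.02 and 0.07 and were not called. Coq10b and Coq10a, which code for coenzyme Q binding proteins, went opposite ways, by 0.86 ± 0.17 and -0.40 ± 0.06. None of 29 respiratory chain genes was called in limma (0 higher and 3 lower unadjusted).

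Plasma protein genes were little called. F12 fell (0.39 ± 0.08) among 18 coagulation genes and Cfd among 18 complement genes. The medians of the 2 lists were -0.17 and -0.12. They ran over the alternatives from -0.44 to -0.05 and from -0.34 to -0.07. The lower ends came with median centring and the upper ends without replicate 1. Cfd was dim, with a mean of -0.23 after myclobutanil and 0.34 in control. It was also the only one of 5 tested adipose tissue markers that was called. Of 21 genes of apolipoproteins and VLDL, Pltp, the phospholipid transfer protein, fell by 0.53 ± 0.08. Unadjusted, 11 of the 21 were lower and 2 higher, beside 13% and 10.4% of all genes. Apoa1 stood the other way, with 3.27, 3.56 and 3.55 in the myclobutanil arrays and 3.20, 3.07 and 3.04 in the control arrays (limma adjusted p = 0.0698, and 0.0171 without replicate 1). Itih1, an inter-alpha-trypsin inhibitor heavy chain, fell by 0.42 ± 0.07 and Serpina3m by 0.54 ± 0.09. The 13 tested hepatocyte markers had a median of -0.11 (from -0.37 with median centring to -0.02 with array weights), and 1 of them, Cyp2e1, was called. Their part in these values was not tested.

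Transporter genes were called in both directions. Of 259 tested genes with an Slc symbol 3 rose and 7 fell, beside 1.28% and 0.98% of all genes. Slc20a1, a phosphate transporter, had 1.84, 1.25 and 2.25 in the myclobutanil arrays, against 0.65, 0.80 and 0.82 in the control arrays. Slc6a6, the taurine transporter, had 0.27, 0.55 and 1.13 in the myclobutanil arrays and 1.36, 1.77 and 1.40 in the control arrays (-0.86 ± 0.18, limma adjusted p = 0.0421). Replicate 3 lay well above the other treated animals and still below the controls. Slc22a8, an organic anion transporter, fell by 1.01 ± 0.21, Abcc6 by 0.55 ± 0.08 and the nucleoside transporter gene Slc28a2 by 0.51 ± 0.11. The calls of Slc20a1, Slc6a6, Slc22a8 and Slc28a2 each held in 1 of the 6 fits with an array left out.

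Of 31 tested nuclear receptors and liver transcription factors 2 fell, Nr0b2 and Klf15, and none rose, beside 0.98% and 1.28% of all genes. At an unadjusted p under 0.05 in limma, 2 were higher and 7 lower, beside 10.4% and 13% of all genes. Without myclobutanil replicate 1, 1 gene of the list was called higher and 1 lower, and Klf15 was not called. Nr0b2, a nuclear receptor without a DNA binding domain that represses bile acid synthesis, had 0.32, 0.44 and 0.38 in the myclobutanil arrays, against 1.10, 1.69 and 1.0 in the control arrays (-0.88 ± 0.15, limma adjusted p = 0.0197). Klf15, a factor for amino acid and glucose genes, fell by 0.55 ± 0.12, the Wnt pathway factor gene Tcf7l2 by 0.51 ± 0.11 and the clock gene Npas2 by 0.42 ± 0.09. Of 29 genes of TGF-beta, BMP and activin signalling only Inhba fell. The other activin and inhibin genes did not pass: Inhbe stood at -0.46 ± 0.15 and Inhbb at 0.45 ± 0.13, and the activin antagonist gene Fst at 0.40 ± 0.13. By their brightest probe sets none of 29 genes of insulin and growth hormone signalling was called in limma (3 higher and 6 lower unadjusted). The brightest probe set of Igf1 stood at -0.36 ± 0.09, while a dimmer one fell by 0.78 ± 0.17 (limma adjusted p = 0.0445).

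Of 25 tested interferon-induced genes Cxcl9 rose and Gbp2 fell, beside 1.28% and 0.98% of all genes. Below control stood 21 of the 25, while of all 11842 genes 5360 stood above it. At an unadjusted p under 0.05 in limma, 2 were higher and 9 lower, beside 10.4% and 13% of all genes. Gbp2, a guanylate binding protein, had -0.17, -0.11 and -0.20 in the myclobutanil arrays, against 0.17, 0.19 and 0.20 in the control arrays (-0.35 ± 0.06, limma adjusted p = 0.0171). The list's median was -0.16, and -0.09 with array weights. Cxcl10, a chemokine that shares its receptor with Cxcl9, stood at -0.15 ± 0.05 (limma adjusted p = 0.139).

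Genes of the matrix, of cell junctions and of other liver cells were called singly. Lox, which cross-links collagen, had -0.09, -0.15 and 0.04 in the myclobutanil arrays, against 0.95, 1.26 and 0.62 in the control arrays (-1.01 ± 0.17, limma adjusted p = 0.0179), and it was the only one of 34 matrix genes that was called. Its dimmer second probe set fell too when no filter on level was used (0.84 ± 0.16). Lrat, which stores vitamin A in stellate cells, fell by 0.36 ± 0.07 as the only one of 10 stellate cell markers. Kdr of the endothelium fell by 0.55 ± 0.11 as the only one of 11. Cldn1, a tight junction protein, fell by 0.45 ± 0.07 as the only one of 27 junction genes. Of all genes 0.98% were called lower and 1.28% higher. Limma p before adjustment was under 0.05 for 3 matrix, 1 stellate cell, 4 endothelial and 5 junction genes that stood lower. It was so for 5 junction genes that stood higher, and for no matrix, stellate cell or endothelial gene. Over all genes the shares were 13% lower and 10.4% higher. Plpp3, a lipid phosphatase, fell by 0.67 ± 0.15. No marker of cholangiocytes (5), erythroid cells (4) or pancreas and intestine (8) was called in limma. At p under 0.05 before adjustment 1 cholangiocyte marker was higher and 1 lower. The counts were 0 and 1 among erythroid and 1 and 1 among pancreas and intestine markers. These stand beside the same 10.4% higher and 13% lower over all genes.

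**Figure D5:**
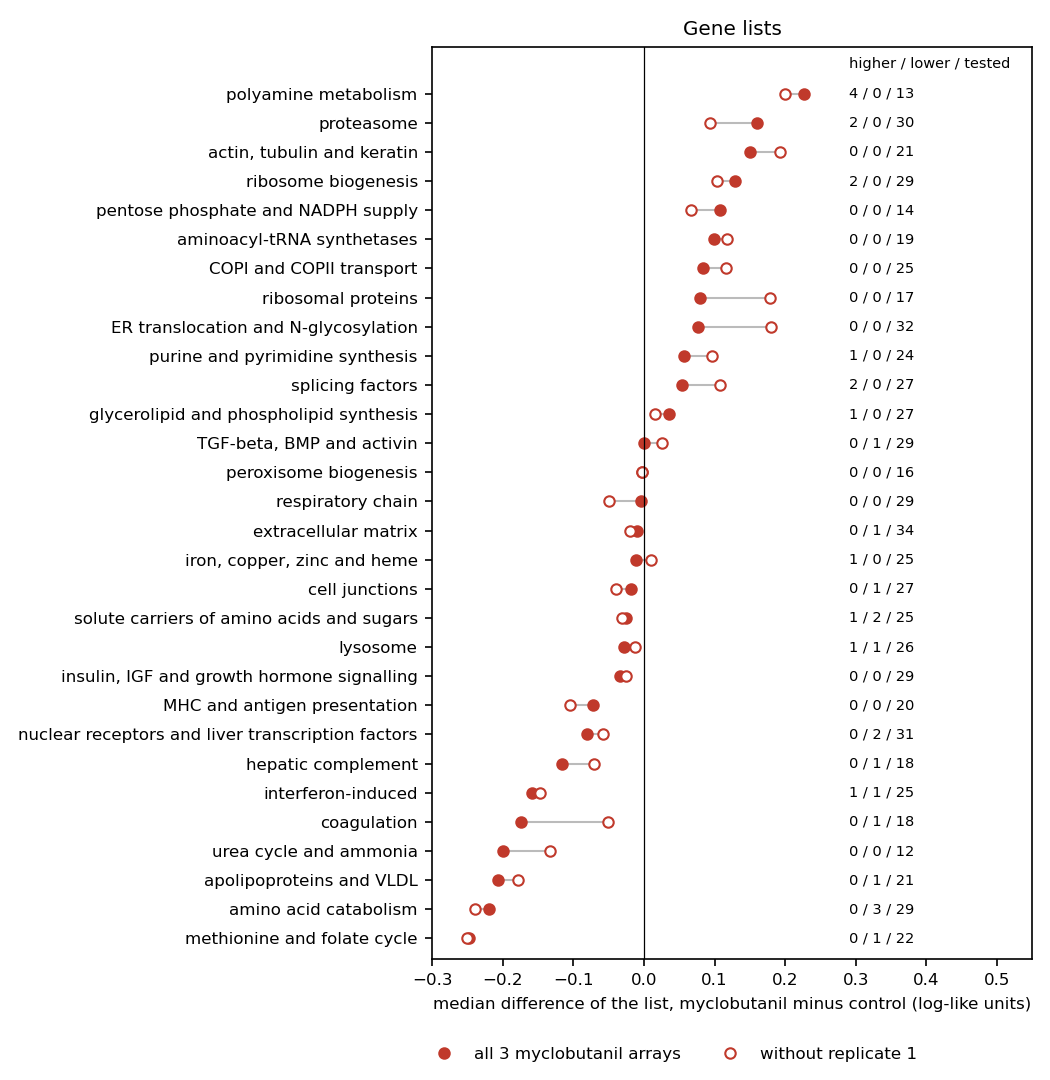
Median myclobutanil minus control difference of the 30 pathway lists (x axis, log-like units), with all arrays (filled) and without replicate 1 (open); the numbers at the right count the genes called higher, called lower and tested with all arrays. Polyamine metabolism lies highest (0.23, with 4 of 13 called higher) and the methionine and folate cycle lowest (-0.25).

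Against the other fungicides few differences passed. No probe set differed from propiconazole, given at the same dose, in limma (0 of 21729; the smallest adjusted p was 0.0586, and 2200 probe sets, 10.1%, had an unadjusted p under 0.05). Without myclobutanil replicate 1 there were 29. The median 95% interval reached 0.141 units to either side of a difference. Against triadimefon, given at a lower dose, 6 probe sets passed (0.0276%), 2 higher (0.0092%) and 4 lower (0.0184%), and 35 without replicate 1. Of these 6, Fcna and Saa3 also differed from control. Fcna averaged 0.10 after myclobutanil, 0.74 after triadimefon and 0.99 in control, a difference from triadimefon of -0.64 ± 0.08 (limma adjusted p = 0.0471). Saa3 averaged 0.27 after myclobutanil, -0.13 after triadimefon and -0.10 in control (0.40 ± 0.05, limma adjusted p = 0.0471). Against propiconazole Fcna stood at -0.71 and Saa3 at 0.37 (limma adjusted p = 0.0586 and 0.0593). The other 4 were the clock genes Dbp (-1.18 ± 0.16), Nr1d2 (-0.64 ± 0.09) and Per3 (-0.29 ± 0.04) and the cell cycle gene Rprm (0.41 ± 0.04), none of which was called against control (limma adjusted p from 0.20 to 0.96).

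Probe sets without a single assigned gene held the largest rise. The probe set 1368718_at, with no gene assigned, had 3.15, 2.85 and 2.68 in the myclobutanil arrays, against 0.85, 0.85 and -0.24 in the control arrays (2.40 ± 0.26, limma adjusted p = 0.00359). The probe set 1371076_at, assigned to several genes, had 3.55, 3.43 and 3.45 in the myclobutanil arrays and 1.52, 1.14 and 1.44 in the control arrays (2.11 ± 0.17, limma adjusted p = 0.000748). Both were called whichever array was left out. Further rises were those of 1375852_at (1.20 ± 0.18) and 1389408_at (1.03 ± 0.16), and the deepest falls those of 1370725_a_at (1.42 ± 0.19), 1379888_at (1.15 ± 0.23), 1386944_a_at (1.10 ± 0.23) and 1384720_at (0.73 ± 0.11). Calls were made in 1.02% of the 5288 probe sets with no gene, 3.58% of the 363 with several and 2.04% of the 16078 with 1.

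Where a called gene had more than 1 tested probe set, the others mostly pointed the same way. There were 63 such genes with 79 other probe sets, of which 67 (84.8%) had the sign of the brightest one, against 62.5% over all genes. Of the 79, 8 were called the same way and 0 the opposite way.

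Promoters were on hand for 123 genes called higher, 98 called lower and 9811 of all genes tested. The TATA box (TATAAA) was found in 8.13% of promoters of genes called higher, 15.3% of genes called lower and 7.64% of all. The GC box (GGGCGG) was found in 69.9%, 54.1% and 60.3%, and the median number of CG dinucleotides was 22, 14 and 20. The antioxidant response element core seen in Gsta3 (TGACNNNGC) was found in 13%, 12.2% and 14.7%. These shares are descriptions of letters, with no test.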

How the data were processed

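Each of 12 rats gave liver RNA for 1 Affymetrix array (Rat Genome 230 2.0). The deposited values are 1 score per probe set; how the authors summarised, scaled and logged them is not given in the sources used here, so these log-like scores have no known base, and the number of arrays limits the precision. Of 31099 probe sets, 57 array controls were left out. The rest were quantile normalized, and the lowest 30% by mean over 12 arrays (9313) were left out, which kept 21729. Group means of all 4 groups were fitted in limma 3.58.1 (R 4.3.3; 8 residual degrees of freedom, intensity trend), two-sided, with Benjamini-Hochberg adjustment over all tested probe sets and calls at an adjusted p under 0.05. Errors are standard errors of the fit. The fits were tested on simulated data.

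Genes came from the platform annotation: 20826 probe sets had 1 gene, 436 several and 9780 none, and 20758 symbols were updated to RefSeq GRCr8. The brightest single-gene probe set stands for its gene. Named genes are ranks 11 to 30 by size in each direction among called genes with separate group ranges. Up to 15 genes called in all 6 fits that leave out an array are named too. From each list come up to 4 called members or else 2 of smallest p. Added to these are the 10 largest in each direction called only without myclobutanil replicate 1 whose remaining arrays do not overlap. The last are those called against both control and another fungicide. Ranks 1 to 10 and other genes are named only where the text turns on them, after their values were seen. The comparison, the 41 gene lists and these rules were chosen with earlier results of these data known. Alternatives changed the normalization, the filter, the arrays in the fit, the variance trend, array weights and a replicate block. Probe sets of gene families (Gsta3, Ces2c, Ugt2b1, P450 and MHC genes) may also read paralogs.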

Additional observations from a re-analysis of the deposited data

Results flagged for a closer look

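The 9313 dimmest probe sets stayed out of the comparison. With no filter on level, 43 of these 9313 were called against control in limma, 33 higher and 10 lower. In the same fit 304 of all 31042 probe sets were called, 188 higher and 116 lower, so calls were rarer among the dim ones. Cell division genes were among the higher ones: Ccna2, cyclin A2 (0.52 ± 0.10), Kif11, a spindle motor (0.34 ± 0.05), Bub1, a spindle checkpoint kinase (0.32 ± 0.06), and Mad2l1 (0.21 ± 0.04). Ccne2, cyclin E2, stood 0.21 ± 0.03 higher. Among the lower ones were the dim probe set of Lox (-0.84 ± 0.16), Spin2b (-0.54 ± 0.07), Cimap1b (-0.42 ± 0.03) and the leukocyte receptor gene Lilra5 (-0.31 ± 0.04). These genes were picked after their values were seen.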

How the results depend on the processing

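Against 395 calls (224 higher, 171 lower), the count was 9 (5 and 4) with the 6 arrays of the 2 groups alone, 1668 (909 and 759) with array weights, whose estimation gave a convergence warning, and 180 (111 and 69) with the replicate block. Leaving out 1 array of either group gave 30 to 924 calls, 14 to 523 higher and 16 to 401 lower; leaving out a propiconazole or triadimefon array gave 165 to 262 calls. The counts with median centring (296), deposited values (322), no filter (304), the lowest 50% left out (451) and no intensity trend (516) stayed within 1.5 times. Replicate numbers did not pair the animals: the correlations of deviations between same-numbered myclobutanil and control arrays were -0.053, -0.19 and -0.022. Differences from propiconazole numbered 0 with all arrays, 343 with array weights, 5 with no intensity trend, 2 with the lowest 50% left out, 1 with median centring or deposited values and 0 to 29 with 1 array left out. Differences from triadimefon numbered 6, then 340 with array weights, 9 with median centring or deposited values, 5 with the lowest 50% left out, 1 with no filter, 0 with the replicate block or no intensity trend and 0 to 35 with 1 array left out. Of 144 named genes, 90 were called and 15 kept the call in all 6 fits with an array left out. The call was lost by 85 with the 6 arrays alone, 33 with the block, 24 with median centring, 21 with no filter and 12 on deposited values. Tnnc2, not called, turned from 0.11 to -0.016 with array weights. The cause of these changes was not tested, except that fewer arrays leave fewer degrees of freedom.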
